A study of Mus musculus with 12 samples.

Results

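The collagen genes were taken as every gene name in the count table that consists of Col, a number, the letter a and a second number, such as Col1a1. Of 44345 gene names 44 matched, and 38 of these passed a filter on low counts and were among the 16238 genes tested. RNA was sequenced from whole sciatic dorsal root ganglia (DRG, L4 to L6) of C57BL/6 mice aged 5 to 8 weeks, in 12 samples that each pooled the ganglia of 2 mice. All mice spent 10 days in standard housing (SH) or in an enriched environment (EE) and were then operated on. EE cages were larger, held more mice and contained extra nesting material, tunnels, a running wheel, changing wooden objects and food treats. In sciatic nerve axotomy (SNA) the nerve was cut through, and in sham surgery it was exposed and left uncut. The ganglia were collected 24 h after surgery. SH Sham (standard housing, sham), SH SNA (standard housing, axotomy), EE Sham (enriched environment, sham) and EE + SNA (enriched environment, axotomy) had 3 samples each. The study describes EE Sham as an earlier data set, so the data set cannot be told apart from housing or surgery in any comparison that uses EE Sham. The question put to the collagen genes was whether axotomy, housing or both changed their RNA, and whether the fibrillar, the basement membrane and the remaining collagens differed in this.

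Collagens are extracellular proteins of 3 chains wound into a triple helix, and each chain has its own gene. Fibrillar collagens (types I, II, III, V, XI, XXIV and XXVII, 11 genes) form the fibrils of connective tissue such as the sheaths around nerve and ganglion. Basement membrane collagens form or border the thin sheets that surround Schwann cells, satellite glia and capillaries, and type IV is their main network (8 genes here, the 6 type IV chains with Col15a1 and Col18a1). The other 25 genes encode collagens that sit on fibrils, form beaded filaments, anchoring fibrils or short networks, or span the cell membrane.

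The start sites of Col4a1 and Col4a2 are shown because these were the members that rose in more than 1 comparison, and they encode the chains that join in the common type IV molecule. They lie head to head on chromosome 8 (GRCm38, the build of mm10), with Col4a1 at 11198423 to 11312826 on the minus strand and Col4a2 at 11312805 to 11449287 on the plus strand. Capitals mark the 22 bases that are exonic in both genes, on opposite strands, so that both 5′ UTRs begin in the stretch chr8:11312801-11312830 (plus strand, RefSeq, GRCm38.p6).
Col4a1 and Col4a2: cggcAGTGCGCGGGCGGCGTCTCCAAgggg
The upstream region of Col25a1 is shown because Col25a1 was the member that fell. It covers the 250 bases before the RefSeq start at 130180845 on chromosome 3 (chr3:130180595-130180844, plus strand), which lies inside the longer gene of the GENCODE annotation (130131501 to 130599877). Capitals mark a run of 16 bases that occurs in 2 identical copies, starting 161 and 75 bases before the start site.
Col25a1: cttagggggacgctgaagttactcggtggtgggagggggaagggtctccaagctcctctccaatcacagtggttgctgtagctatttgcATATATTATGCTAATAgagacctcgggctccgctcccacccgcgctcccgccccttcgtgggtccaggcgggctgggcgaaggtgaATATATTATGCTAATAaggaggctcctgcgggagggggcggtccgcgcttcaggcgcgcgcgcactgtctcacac
The RefSeq windows, 27025 in number, run from 250 bases before to 50 bases after a gene start. A repeat at least as long was present within the 250 upstream bases of 2.01% of them. Both the repeat and its inner 8 letters, ATGCTAAT, were noticed in this sequence and then counted. These 8 letters, sought on both strands, were in 0.921% of all windows and, of the 35 collagen genes with a window, in Col25a1. The letters GGGCGG were in 62.9% of the 35 collagen windows and in 35.9% of all windows, those of Col4a1, Col4a2 and Col25a1 included. CCAAT was found in 34.3% and 37.9%, TATAAA in 14.3% and 14.2%, and TGANTCA in 2.86% (Col6a1) and 7.93%, respectively. All 5 were sought on both strands. CCAAT can share end letters with CCGCCC, the reverse complement of GGGCGG, and a match describes letters in the window, not a binding site.

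The samples held 11343579 to 22871460 counted reads. CPM are counts divided by the tested-gene total of a sample times its TMM factor, a scaling factor between samples, on a common scale. Atf3, a transcription factor induced in axotomized neurons, was at 110 to 168 CPM in the 6 sham samples. In the 6 SNA samples Atf3 was at 454 to 549 CPM, so the surgery labels and the data did not conflict. Of the tissue markers, 7 genes of sensory neurons summed to 6902 to 8406 CPM and 7 genes of Schwann cells to 6701 to 12593 CPM in every sample. Epidermal markers summed to at most 4.78 CPM, with Flg2 at 0 in all samples. Skeletal muscle markers stood out in 1 library, SH SNA replicate 2, at 933 CPM against 3.70 to 162 CPM in the other 11. As each sample is bulk RNA, fewer cells of a type and less RNA per cell cannot be told apart here.

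Collagen RNA summed to 707 to 1086 CPM per sample. FPKM are fragments scaled by a length of the gene and by the total of the library. All annotated exons together cover 12426 bases in Col1a2 and 4904 in Col28a1, and these genes had means of 140 and 86.9 CPM. The order by FPKM, and the class shares and ratios below, depend on the length used, which may span all exons rather than 1 transcript. By FPKM the highest collagen gene was Col28a1, a collagen known from peripheral nerve. Its mean over the 12 samples was 17.6 FPKM, with a range of 15.8 to 20.7. Col4a1 followed with a mean of 16.2 FPKM (11.5 to 20.8). The main chains of type I and type III, the fibril collagens of most connective tissue, came at 11.5 FPKM for Col1a2 (7.84 to 14.9), 8.38 FPKM for Col1a1 (5.84 to 11.6) and 7.58 FPKM for Col3a1 (5.61 to 9.22). Between them stood Col4a2, at 8.97 FPKM (6.35 to 11.5), and the transmembrane collagen Col23a1, at 8.76 FPKM (6.13 to 10.3). The ranges of Col4a2, Col23a1, Col1a1 and Col3a1 overlapped, and so did those of Col28a1 and Col4a1. Col5a3, a type V chain, had 6.96 FPKM (5.70 to 8.78), and the fibril-associated Col16a1 had 4.84 FPKM (3.67 to 6.71). Col15a1, a collagen at the outer face of basement membranes, had 3.72 FPKM (3.26 to 5.12).

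**Figure D1:**
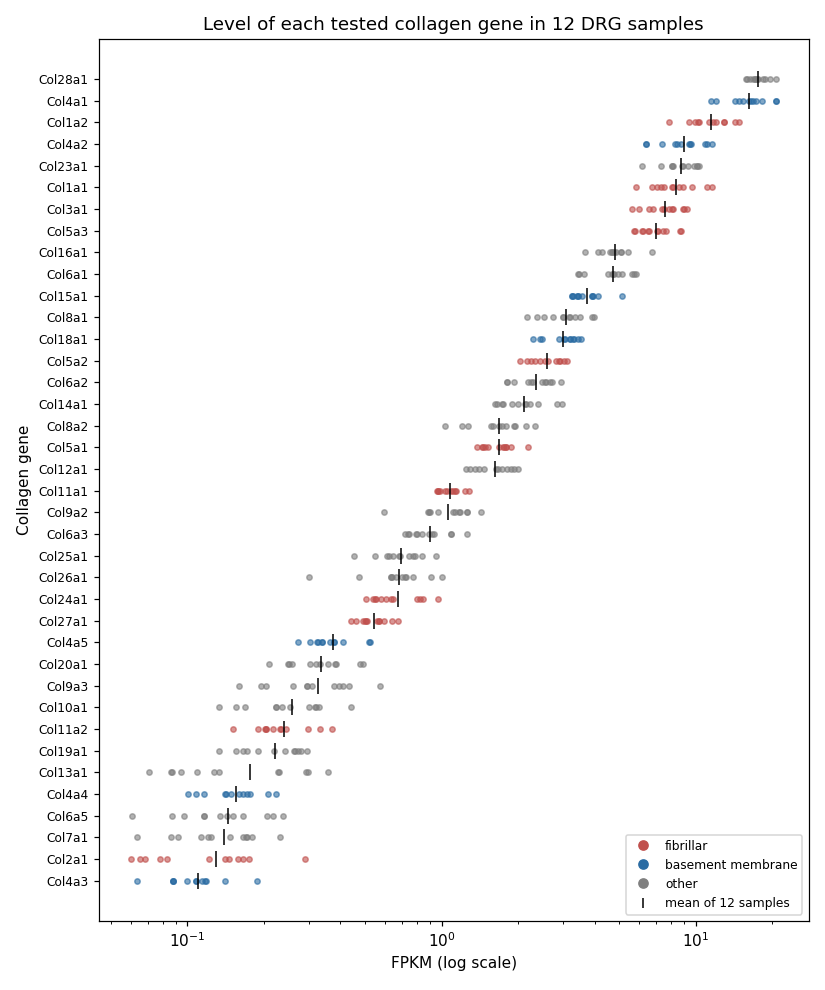
Deposited FPKM (log axis) of the 38 tested collagen genes, ordered by mean, with 1 point per sample, a bar at the mean of 12 samples and colours for the 3 classes. Levels spread from about 0.1 FPKM for Col4a3 to 17.6 FPKM for Col28a1, and each class has genes near both ends of the order.

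By class, fibrillar collagens made up 31.2% to 34.6% of the collagen FPKM of a sample, basement membrane collagens 22.9% to 27.6% and the other collagens 38.8% to 44.0%. A few genes carried each class. Col1a2, Col1a1 and Col3a1 held 62.7% to 70.2% of the fibrillar FPKM, and Col4a1, Col4a2 and Col15a1 held 87.0% to 90.5% of that of the basement membrane class. Col28a1, Col23a1 and Col16a1 held 55.5% to 63.3% of the FPKM of the other collagens. The partner chains kept close ratios, with Col4a1 at 1.64 to 2.01 times the FPKM of Col4a2 and Col1a2 at 1.22 to 1.48 times that of Col1a1 over the 12 samples. The 4 chains that form the more restricted type IV networks were low, with mean levels of 0.372 FPKM for Col4a5, 0.155 for Col4a4, 0.110 for Col4a3 and 0.0146 for Col4a6. The cartilage collagens Col2a1 and Col10a1 were low as well, at 0.129 and 0.258 FPKM. Of further collagens found in cartilage, Col11a1 and Col9a2 had 1.08 and 1.07 FPKM, and Col9a3 and Col11a2 had 0.325 and 0.240 FPKM. The 6 members that failed the filter were Col17a1 (0 to 8 reads per sample), Col22a1 (3 to 11), Col4a6 (0 to 4), Col6a4 (0 to 8), Col6a6 (0 to 3) and Col9a1 (0 to 4). None of the 6 was tested.

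After axotomy 8 collagen genes rose and 1 fell, all by less than 2 fold. With both housings together, 6 SNA against 6 sham samples and housing as a covariate, these 9 of the 38 tested members passed at a Benjamini-Hochberg adjusted P-value below 0.05 in the edgeR quasi-likelihood test. Those that rose were Col4a1, Col4a2, Col6a3, Col6a5, Col7a1, Col8a1, Col16a1 and Col26a1, and the one that fell was Col25a1. The share of all 16238 genes called was 22.4% (11.4% higher and 11% lower), so the 9 of 38 were near the background in number and to one side of it in direction. At the study's threshold, an unadjusted P-value below 0.05, 18 members were higher and 1 was lower, and 34.7% of all genes were called (18.1% higher). The log2 fold change was above 0 for 33 of 38 members and for 51.6% of all genes, and its median was 0.22 over the members and 0.0071 over all genes. No member had all 6 SNA samples above or below all 6 sham samples, as 11.1% of all genes did.

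**Figure D2:**
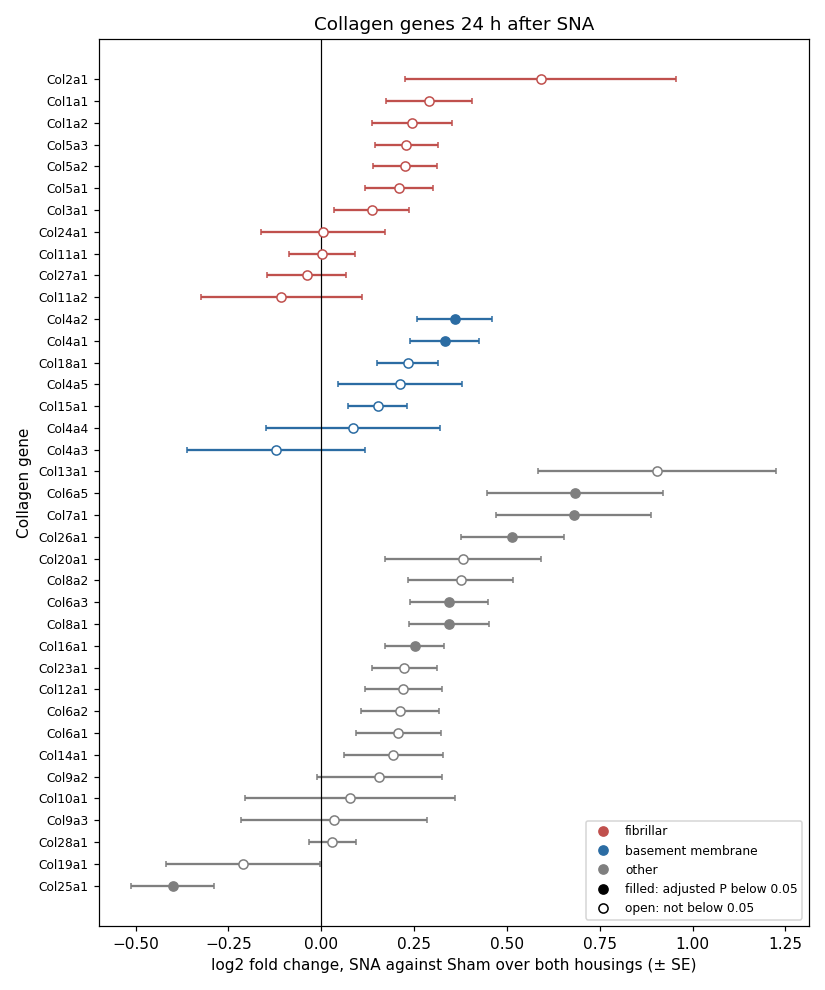
Log2 fold change (± SE) of SNA against Sham over both housings for the 38 tested collagen genes, grouped by class and ordered within class, filled where the adjusted P-value was below 0.05. Most points lie to the right of 0, the filled points are 2 basement membrane genes and 7 other collagens, and the 1 filled point left of 0 is Col25a1.

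The medians of the 3 classes lay close together. The median log2 fold change was 0.21 over the 11 fibrillar genes, 0.21 over the 7 basement membrane genes and 0.22 over the 20 other genes. None of the fibrillar genes, 2 of the basement membrane genes and 7 of the others passed the adjusted threshold, and 5, 3 and 11 passed the unadjusted one. These adjusted counts rested on single libraries. Without replicate 2 of SH SNA, the library with the high muscle markers, 5 fibrillar, 3 basement membrane and 12 other genes passed, and over all 12 omissions the counts were 0 to 5, 2 to 3 and 2 to 12. Whether the classes differed was not tested, since their genes are not replicates.

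In the basement membrane class, both main type IV chains rose. Col4a1 was at 82.3, 112 and 96.9 CPM in SH Sham, 111, 106 and 141 in SH SNA, 80.5, 117 and 101 in EE Sham and 116, 124 and 144 in EE + SNA. The lowest SNA sample was thus above 4 of the 6 sham samples, and the lowest levels of all were in replicate 1 of each sham group. Its fold change over both housings was 1.26 (log2 0.33 ± 0.093, SE, adjusted P = 0.0155). Col4a2 was at 42.2, 62.8 and 54.7 CPM in SH Sham, 58.1, 56.5 and 72.3 in SH SNA, 43.5, 61.9 and 48.8 in EE Sham and 64.9, 73.5 and 77.8 in EE + SNA. Of the 6 SNA samples 4 were above every sham sample and the other 2, both SH SNA, fell within the sham range. Its fold change was 1.28 (log2 0.36 ± 0.10, adjusted P = 0.0151). Both chains kept their calls whichever of the 12 samples was left out, at adjusted P-values of at most 0.0489 for Col4a1 and 0.0452 for Col4a2. Col15a1, the precursor of restin, and Col18a1, the precursor of endostatin, did not pass, at log2 0.15 ± 0.079 (adjusted P = 0.183) and 0.23 ± 0.082 (adjusted P = 0.0504). Col18a1 passed by the likelihood ratio test, by DESeq2, with no filter, with at least 10 counts in every sample and with the replicate block. It did not pass with library size scaling or by limma on log2 FPKM. The low chains Col4a3, Col4a4 and Col4a5 had log2 values of −0.12 ± 0.24, 0.085 ± 0.23 and 0.21 ± 0.17 and did not pass.

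Col25a1, a transmembrane collagen of neurons that is found in amyloid plaques, fell. It was at 6.45, 6.74 and 5.88 CPM in SH Sham, 5.58, 5.999 and 5.41 in SH SNA, 8.48, 7.13 and 6.66 in EE Sham and 4.005, 5.27 and 4.84 in EE + SNA. The 3 EE + SNA samples were below all other samples, and the SH SNA samples reached into the range of SH Sham. Its fold change over both housings was 0.758 (log2 −0.40 ± 0.11, adjusted P = 0.0151), and the call held in each of the 12 omissions of a sample. In this comparison 11% of all genes passed the adjusted threshold and were lower. Of the 7 marker genes of sensory neurons 4 did so, Isl1, Nefh, Pou4f1 and Scn10a, and the 7 had a median log2 fold change of −0.19. What part these neuronal genes had in the Col25a1 result was not tested.

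Col26a1 (chr5:136741759-136883209), a secreted collagen of which little is known, rose. It was at 3.75, 3.66 and 4.08 CPM in SH Sham, 5.35, 4.31 and 5.89 in SH SNA, 1.80, 3.64 and 2.76 in EE Sham and 4.27, 3.87 and 4.59 in EE + SNA. All SH SNA samples were above all SH Sham samples, all EE + SNA samples were above all EE Sham samples, and the sham groups themselves lay apart, with EE Sham the lower. Its fold change over both housings was 1.43 (log2 0.51 ± 0.14, adjusted P = 0.0130), and no omission of a sample ended the call.

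Among the collagens of filaments and short networks, Col6a3 (chr1:90765923-90843971), a chain of the beaded filaments of type VI, was at 8.62, 9.47 and 10.7 CPM in SH Sham, 13.1, 9.04 and 15.2 in SH SNA, 9.11, 9.94 and 9.59 in EE Sham and 13.3, 11.1 and 11.2 in EE + SNA. Replicates 1 and 3 of SH SNA were high and replicate 2 lay among the sham samples. It rose 1.27 fold (log2 0.34 ± 0.11, adjusted P = 0.0269). Col6a5 (chr9:105856078-105960643), a further type VI chain that is far less abundant, was at 0.939, 1.08 and 0.936 CPM in SH Sham, 1.91, 1.35 and 1.75 in SH SNA, 0.722, 1.14 and 0.487 in EE Sham and 1.25, 0.783 and 1.69 in EE + SNA, which rests on 6 to 25 reads per sample. The SH SNA samples lay above every SH Sham sample and the EE groups overlapped. Its fold change was 1.61 (log2 0.68 ± 0.24, adjusted P = 0.0462). Col8a1 (chr16:57624258-57754737), a short chain collagen of vessel walls and of the membrane under the corneal endothelium, was at 12.96, 17.001 and 13.97 CPM in SH Sham, 19.96, 15.6 and 16.5 in SH SNA, 12.5, 11.005 and 16.2 in EE Sham and 18.3, 15.3 and 20.8 in EE + SNA. The groups overlapped in both housings, and the fold change was 1.27 (log2 0.34 ± 0.11, adjusted P = 0.0285). The remaining type VI and type VIII chains did not pass, at log2 0.21 for Col6a1, 0.21 for Col6a2 and 0.38 for Col8a2.

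Col7a1 (chr9:108953586-108984875), the collagen of the anchoring fibrils under epithelia, was at 1.70, 1.15 and 0.936 CPM in SH Sham, 2.37, 1.86 and 1.51 in SH SNA, 0.902, 1.21 and 0.650 in EE Sham and 1.78, 1.74 and 1.29 in EE + SNA. All EE + SNA samples exceeded all EE Sham samples and the SH groups overlapped. It rose 1.60 fold (log2 0.68 ± 0.21, adjusted P = 0.0266), which rests on 8 to 40 reads per sample. Col16a1 (chr4:130047840-130099283), which associates with fibrils, was at 29.1, 34.2 and 32.03 CPM in SH Sham, 34.4, 32.2 and 45.5 in SH SNA, 25.5, 31.2 and 28.03 in EE Sham and 33.5, 36.7 and 31.7 in EE + SNA. Replicate 3 of SH SNA was the highest sample and the SH groups overlapped, while the EE groups did not. Its fold change was 1.19 (log2 0.25 ± 0.079, adjusted P = 0.0303). Col28a1, the member of highest mean FPKM, was at 90.8, 83.6 and 83.2 CPM in SH Sham and 102, 79.3 and 86.3 in SH SNA. It was at 87.8, 79.2 and 92.2 CPM in EE Sham and 78.8, 95.9 and 83.97 in EE + SNA. Its groups overlapped throughout, and its log2 fold change was 0.030 ± 0.063 (adjusted P = 0.782). Col23a1 had a log2 fold change of 0.22 ± 0.087 (adjusted P = 0.0752).

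With all 12 samples and the filter on low counts, none of the fibrillar genes passed after adjustment. Without replicate 2 of SH SNA, Col1a1, Col1a2, Col5a1, Col5a2 and Col5a3 passed and were higher, at adjusted P-values of 0.0257, 0.0223, 0.0460, 0.0140 and 0.0257. Without replicate 2 of SH Sham 3 fibrillar genes passed, without replicate 2 of EE Sham 2 and without replicate 1 of SH SNA 1, while in the other 8 omissions none did. With no filter 4 passed (Col1a1, Col1a2, Col5a2 and Col5a3), and by the likelihood ratio test 1 did (Col5a3). Col1a1 was at 46.6, 62.8 and 49.1 CPM in SH Sham, 58.9, 48.4 and 76.6 in SH SNA, 39.4, 56.01 and 44.4 in EE Sham and 53.8, 53.3 and 74.1 in EE + SNA. Col1a2, its partner chain, was at 125, 156 and 125 CPM in SH Sham, 157, 116 and 173 in SH SNA, 97.9, 145 and 121 in EE Sham and 139, 143 and 184 in EE + SNA. Both were highest in replicate 3 of SH SNA and of EE + SNA, and the SNA and sham samples overlapped. Their log2 fold changes were 0.29 ± 0.12 (adjusted P = 0.0808) and 0.24 ± 0.11 (adjusted P = 0.112). Col3a1 was at 55.03, 76.8 and 67.4 CPM in SH Sham, 68.3, 50.7 and 75.3 in SH SNA, 48.4, 61.02 and 57.1 in EE Sham and 64.3, 65.7 and 76.6 in EE + SNA, with a log2 fold change of 0.14 ± 0.10 (adjusted P = 0.365). Col2a1, the cartilage collagen, had 0.59 ± 0.36 (adjusted P = 0.270). The 3 type V chains Col5a1, Col5a2 and Col5a3 had log2 values of 0.21, 0.23 and 0.23 and adjusted P-values of 0.0607 to 0.114. Col11a1, Col24a1, Col27a1 and Col11a2 lay between −0.11 and 0.0048.

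**Figure D3:**
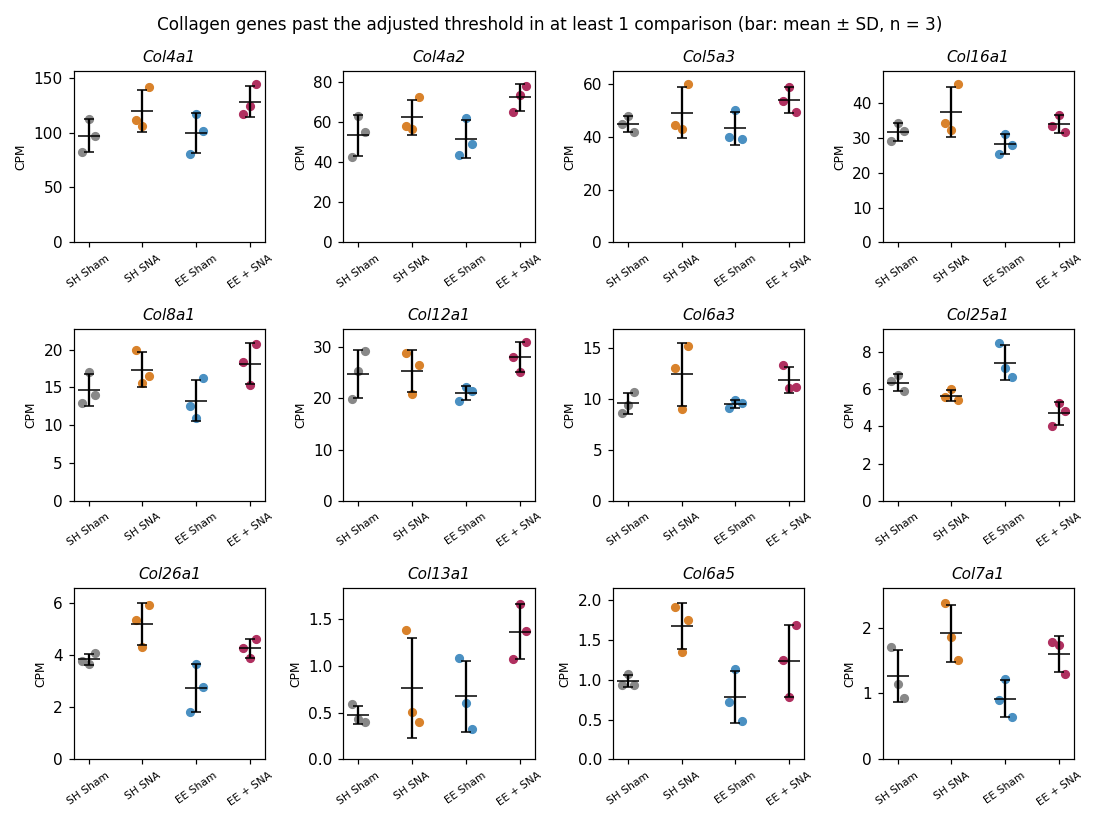
CPM of the 12 collagen genes past the adjusted threshold in at least 1 comparison, with 1 point per sample, bars at the mean ± SD of 3 samples per group and axes from 0. Col4a1 and Col4a2 are highest in EE + SNA, Col25a1 is lowest there, and the groups of most other genes overlap.

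The size of these changes was close to the spread between samples, and the counts moved with single samples. The count of 9 fell to 5 without replicate 1 of SH Sham, to 5 without replicate 1 of EE Sham and to 4 without replicate 1 of EE + SNA, and it rose to 20 (19 higher, background 21.1%) without replicate 2 of SH SNA, the library with the high muscle markers. Col6a3, Col7a1, Col16a1, Col8a1 and Col6a5 lost their calls in 5, 6, 6, 7 and 9 of the 12 omissions, at adjusted P-values of up to 0.106. DESeq2 did not call Col6a5 (adjusted P = 0.0810). Limma on log2(FPKM + 1) called 4 members, and no filter on low counts 19.

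Markers of other cell types were counted in the same comparison, in which 22.4% of all genes passed the adjusted threshold and 11.4% were higher. Schwann cell markers summed to 6701 to 9287 CPM over the 6 sham samples and to 8026 to 12593 CPM over the 6 SNA samples, with 6 of 7 genes past the adjusted threshold and higher (median log2 fold change 0.34). Fibroblast markers summed to 482 to 570 CPM in sham and to 503 to 775 CPM in SNA samples, and 2 of 7, Dcn and Pdgfra, rose (median 0.27). Of the macrophage markers 3 of 7 rose, of the satellite glia markers 3 of 6, of the endothelial markers 1 of 7 and of the pericyte and smooth muscle markers 1 of 7, the last pair being near the background. The skeletal muscle list had a median of 1.74 with 0 of 7 genes past the adjusted threshold and 6 higher at an unadjusted P-value below 0.05 by edgeR. Both tested tendon genes, Scx and Mkx, fell (median −0.68), 0 of 5 bone and cartilage genes passed, with 1 lower at an unadjusted P-value below 0.05, and 0 of 2 epidermal genes passed either threshold. What part these cell types had in the collagen result was not tested.

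In standard housing, SH SNA against SH Sham, no member passed the adjusted threshold, where 11.2% of all genes did, and the smallest adjusted P-value was 0.0798 (Col2a1). At an unadjusted P-value below 0.05, 7 members were higher and none lower, against 25.2% of all genes, or 13.4% higher. These were Col2a1, Col6a5, Col26a1, Col4a1, Col8a2, Col23a1 and Col6a3. The median log2 fold change was 0.14 over the members and 0.0047 over all genes, and 28 of 38 were above 0, against 51% of all genes. Col2a1 was at 0.411, 0.359 and 0.468 CPM in SH Sham, 0.994, 0.507 and 1.75 in SH SNA, 0.902, 0.835 and 0.731 in EE Sham and 1.07, 0.392 and 0.967 in EE + SNA. All SH SNA samples were above all SH Sham samples, but these are 5 to 22 reads per sample. No SH Sham sample reached 10 reads, so Col2a1 passed the filter on low counts through the other groups. Its rise against SH Sham is thus not independent of the filter. Its log2 fold change was 1.38 ± 0.47. Groups did not overlap for 4 members (Col2a1, Col6a5, Col20a1 and Col26a1), each higher in SNA, as for 14.3% of all genes in this direction. Without replicate 3 of SH SNA 2 members passed the unadjusted threshold, and 16 without replicate 2, when 3 passed after adjustment as well. Without replicate 3 the median was 0.019.

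EE + SNA against SH Sham, which shares its controls with that comparison, gave 4 members that rose after adjustment, against 12.5% of all genes, or 6.87% higher. Col4a1 rose 1.32 fold (adjusted P = 0.0249) and Col4a2 1.36 fold (adjusted P = 0.0266), each with all 3 EE + SNA samples above all SH Sham samples. Col5a3 (chr9:20770050-20815067), a type V chain, was at 44.7, 47.8 and 41.7 CPM in SH Sham, 44.4, 42.8 and 60.1 in SH SNA, 39.98, 50.2 and 39.2 in EE Sham and 53.3, 58.9 and 49.3 in EE + SNA. Its EE + SNA samples lay just above those of SH Sham, and it rose 1.21 fold (log2 0.27 ± 0.080, adjusted P = 0.0415). Col13a1 (chr10:61838236-61979108), a transmembrane collagen of the neuromuscular junction, was at 0.587, 0.430 and 0.401 CPM in SH Sham, 1.38, 0.507 and 0.398 in SH SNA, 1.08, 0.607 and 0.325 in EE Sham and 1.07, 1.65 and 1.37 in EE + SNA. The EE + SNA samples were above all SH Sham samples, while 1 sample of SH SNA and 1 of EE Sham reached them. It rose 2.90 fold (log2 1.54 ± 0.34, adjusted P = 0.0112), on 4 to 38 reads per sample. Col13a1 passed the filter on low counts through EE + SNA, the group where it was high, so this call is not independent of the filter. At the unadjusted threshold 9 members were higher and Col25a1 was lower, against 27.2% of all genes, and the median over the members was 0.18. The 4 adjusted calls became 1 without replicate 1 or 3 of SH Sham, 2 without replicate 3 of EE + SNA and 6 without replicate 2 of SH Sham. Col4a1 and Col4a2 each lost the call in 3 of 6 omissions and Col5a3 in 4, and Col13a1, with the filter unchanged, in none. Scaled by library size only, Col5a3 did not pass (adjusted P = 0.0604).

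Within the enriched environment, EE + SNA against EE Sham, 3 members passed the adjusted threshold, against 4.83% of all genes. Col4a2 rose 1.39 fold (log2 0.48 ± 0.12, adjusted P = 0.0372). Col12a1 (chr9:79598991-79718831), which decorates type I fibrils, was at 19.8, 25.2 and 29.2 CPM in SH Sham, 28.8, 20.9 and 26.4 in SH SNA, 19.5, 22.2 and 21.4 in EE Sham and 28.1, 25.1 and 30.9 in EE + SNA. EE Sham was uniformly low and EE + SNA high, without overlap, while the SH samples spanned both. It rose 1.32 fold (log2 0.40 ± 0.10, adjusted P = 0.0437). Col25a1 fell to 0.641 of its EE Sham level (log2 −0.64 ± 0.16, adjusted P = 0.0417), also without overlap. These calls were not stable to the omission of a sample, and Col25a1 lost its call in 5 of 6 omissions and Col4a2 and Col12a1 in 4 each. DESeq2 kept Col4a2 and Col12a1 and did not call Col25a1 (adjusted P = 0.0534), with the replicate number as a block Col25a1 and Col12a1 did not pass (0.0648 and 0.0568), and limma on log2 FPKM called none of the 3. At the unadjusted threshold 16 members were higher and 1 lower, against 20.6% of all genes (10.3% higher), among them Col1a1, Col1a2, Col3a1, Col5a2 and Col5a3. The median log2 fold change was 0.29, and 33 of 38 were above 0, against 50.8% of all genes. The adjusted count went to 0 without replicate 1 or 3 of EE Sham or replicate 3 of EE + SNA, to 1 without replicate 1 of EE + SNA and to 8 without replicate 2 of EE Sham.

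The 2 comparisons of SNA with sham within a housing share no samples, so their directions could be set side by side. The log2 fold change had the same sign in both for 27 of 38 members, or 71.1%, and for 74.1% of all genes tested. It was above 0 in both for 25 members, or 65.8%, and for 37.96% of all genes. By class, 5 of 11 fibrillar, 5 of 7 basement membrane and 17 of 20 other members had the same sign. Col25a1 and Col19a1 were below 0 in both.

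**Figure D4:**
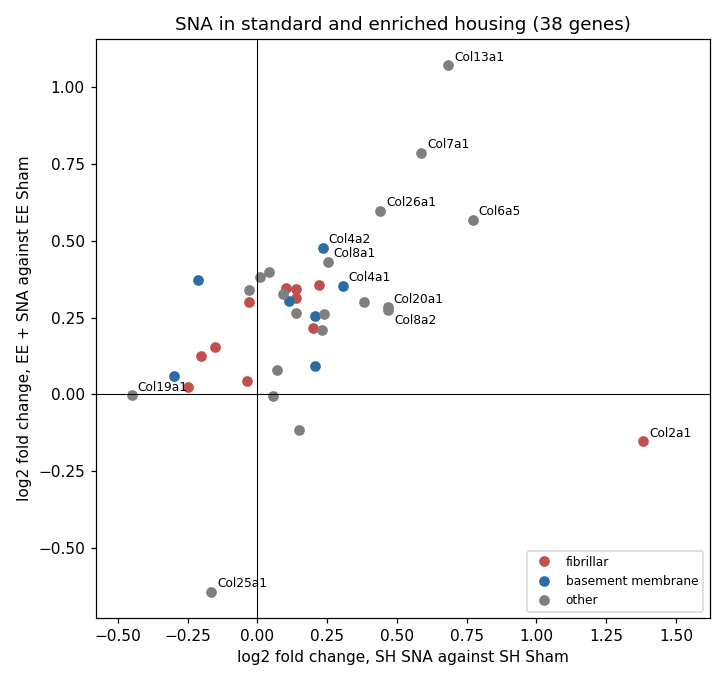
Log2 fold change after SNA in SH (horizontal) against that in EE (vertical) for the 38 tested collagen genes, coloured by class. Most genes lie in the upper right, Col2a1 lies far right at 1.38 in SH and −0.15 in EE, and Col25a1 lies lowest at −0.64 in EE.

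Whether the effect of SNA differed between housings was tested as an interaction, and no member passed after adjustment, as no gene of the 16238 did. Col25a1 (log2 −0.47 ± 0.20) and Col2a1 (−1.53 ± 0.66) had unadjusted P-values below 0.05, against 2.61% of all genes, and adjusted P-values of 0.9999. The median over the members was 0.18. EE + SNA and SH SNA, the pair that differs in housing alone after axotomy, gave 0 members at either threshold by edgeR, against 4.1% of all genes at the unadjusted one, where DESeq2 called 1 member. The log2 differences ranged from −0.63 (Col9a3) to 0.86 (Col13a1) with a median of 0.058, and that of Col4a1 was 0.10 ± 0.11 (SE). Col25a1 was lower in every EE + SNA sample than in any SH SNA sample, as 5.09% of all genes were. The median changed sign in 2 of 6 omissions, to −0.076 without replicate 2 of SH SNA and to −0.0022 without replicate 3 of EE + SNA.

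Enriched housing without axotomy, EE Sham against SH Sham, gave no call after adjustment and fold changes below 0 for most members. The log2 fold change was below 0 for 25 of 38 members and above 0 for 51.3% of all genes, with a median of −0.12 (0.0027 over all genes), and 0 members passed after adjustment by edgeR or DESeq2 (0.00616% of all genes by edgeR), while 3 had an unadjusted P-value below 0.05 by edgeR. Against 2.97% of all genes at this unadjusted threshold, Col14a1 (log2 −0.32 ± 0.11) and Col3a1 (−0.25 ± 0.11) were lower and Col2a1 (0.97 ± 0.40) was higher. Col2a1 had passed the filter on low counts through groups other than SH Sham. With the replicate number as a block, 8 members had an unadjusted P-value below 0.05, 7 of them lower, against 5.22% of all genes. These 7 were Col1a1, Col1a2, Col3a1, Col12a1, Col14a1, Col16a1 and Col26a1, and the smallest adjusted P-value was 0.204 (Col3a1). Without the block, 8 members passed the unadjusted threshold without replicate 2 of EE Sham, 6 without replicate 1 of SH Sham, 1 without replicate 1 of EE Sham and 0 without replicate 2 of SH Sham. Without replicate 1 of EE Sham the median was −0.019.

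Summed by class, the values followed the same order in the groups. Fibrillar collagens summed to 363 ± 41.2 CPM (SD, n = 3) in SH Sham, 389 ± 71.8 in SH SNA, 325 ± 47.1 in EE Sham and 408 ± 42.4 in EE + SNA. Basement membrane collagens summed to 199 ± 28.9, 237 ± 32.9, 195 ± 30.2 and 251 ± 23.4 CPM, and the other collagens to 295 ± 15.8, 326 ± 43.2, 283 ± 19.5 and 327 ± 15.7 CPM, in the same order of groups. EE + SNA had the highest and EE Sham the lowest mean in each class. By CPM the EE + SNA samples lay above all EE Sham samples in each class and above all SH Sham samples in the other collagens. The remaining pairs of groups overlapped within a class. The lowest EE + SNA and the highest EE Sham sample were at 376 and 374 CPM in fibrillar collagens. In basement membrane collagens they were at 228 and 227 CPM. By summed FPKM EE + SNA overlapped EE Sham in both of these classes and SH Sham in the other collagens. In the other collagens the lowest EE + SNA sample stayed above the highest EE Sham sample, at 51.4 and 51.0 FPKM. No test was made on these sums.

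**Figure D5:**
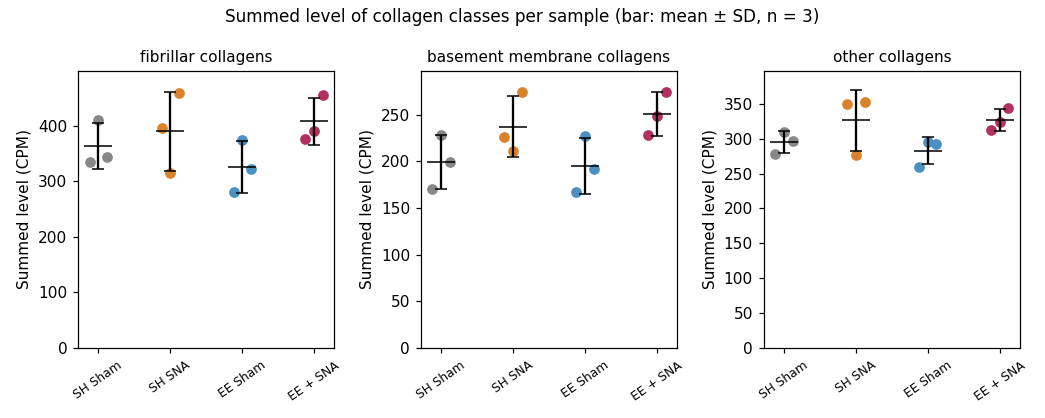
Summed CPM of the 11 fibrillar, 8 basement membrane and 25 other collagen genes, with 1 point per sample and bars at the mean ± SD of 3 samples per group, axes from 0. EE + SNA lies above EE Sham in all 3 panels, narrowly for the fibrillar and the basement membrane collagens. The 3 SH SNA samples spread from the range of SH Sham or below it to above it.

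The genes that make, modify, degrade and bind collagen were counted over both housings from lists of genes, against the same 22.4% of all genes. Of 20 genes of collagen synthesis and folding, 6 rose and 1 fell (median log2 fold change 0.15). The secretion factor Mia3 (log2 0.23), the prolyl hydroxylase subunit P4ha3 (log2 0.29), the collagen chaperone Serpinh1 (log2 0.30) and the collagen-binding Sparc (log2 0.30) rose, and the galactosyltransferase Colgalt2 fell (log2 −0.35). Of 12 tested genes of processing and crosslinking, 4 rose and 2 fell (median 0.21). The procollagen C-proteinase Bmp1 (log2 0.54), its enhancer Pcolce (log2 0.37) and the crosslinking enzyme Lox (log2 0.55) rose, while the Bmp1 relative Tll1 (log2 −0.44) and the Lox relative Loxl4 (log2 −0.43) fell. Of 13 genes of breakdown and its inhibitors, 3 rose and 1 fell (median 0.24). The membrane protease Mmp16 (log2 0.95) and the inhibitors Timp1 (log2 0.56) and Timp3 (log2 0.17) rose, and Timp2 fell (log2 −0.12).

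Of 11 receptors, 3 rose and none fell (median 0.23), the integrin chain Itgb1 (log2 0.35), the collagen receptor kinase Ddr2 (log2 0.23) and Gpr126 (log2 0.18), a receptor of Schwann cells that binds type IV collagen. Of 12 partners in the basement membrane, 6 rose and none fell (median 0.17), 5 of which were the laminin chains Lama5 (log2 0.65), Lama2 (log2 0.32), Lamb1 (log2 0.21), Lamc1 (log2 0.28) and Lamb2 (log2 0.25). Of 14 partners in the interstitial matrix, 2 rose, the fibril-binding Dcn (log2 0.30) and Tnxb (log2 0.28), with a median of 0.22. Dcn is also among the fibroblast markers.

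Exons of Col4a3 shared 563 bases (5.65%) with C430014B12Rik and those of Col9a3 234 bases (6.07%) with Tcfl5, each on the other strand, and the 22 bases shown above were shared by Col4a1 and Col4a2. Whether reads were counted by strand is not given in the sources used here, so reads in these stretches may come from either gene.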

How the data were processed

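RNA of 12 samples, 3 per group, was analysed as deposited. The authors aligned paired reads of TruSeq mRNA libraries to mm10 with TopHat2 2.0.12 and Bowtie2 2.2.3 and obtained read numbers for each gene name from HTSeq 0.6.0, per the labels. The deposited count table holds raw counts for 44345 gene names and 5 summary lines, which were removed. The FPKM deposited beside it are values that the authors scaled by gene length and library total. The strand setting of the counting is not given in the sources used here. CPM are counts divided by a scaled total, which is the reads of a sample in the tested genes times its TMM factor.

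Counts were scaled by TMM, filtered with filterByExpr (10 counts, total of 15) and tested with glmQLFit and glmQLFTest in edgeR 4.0.16 (R 4.3.3), two-sided, with Benjamini-Hochberg adjustment over all 16238 genes. The 5 comparisons between groups each used only the 6 samples compared, and the interaction and the effect of SNA over both housings on all 12. The smallest P-value an exact permutation test could reach with 3 against 3 samples is 0.1, so none was used. Alternatives were the likelihood ratio test, DESeq2 1.42.0, library size scaling, no filter, a filter of 10 counts in every sample, all samples in one fit, the replicate block, limma 3.58.1 on log2 of the FPKM plus 1 or 0.1, and leaving out each sample. The fit was tested on simulated data for 16238 genes, in which SNA against Sham over both housings called 48 of 68 genes changed by 0.5 on the log2 scale and SH SNA against SH Sham 38 of 72.

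Whether equal replicate numbers pair samples was checked by the correlation of their deviations from the group means. All 3 pairs were above 0.1 for EE Sham against SH Sham (0.111 to 0.331), so the blocked value stands beside that result. In the other comparisons at least 1 pair was below. Pairs of different number reached 0.194 in EE Sham against SH Sham, within the range of equal numbers. In EE + SNA against SH SNA, equal numbers gave 0.057 to 0.126 and different numbers at most 0.040. Which samples are paired was thus not settled. Replicates differed by 3.87 to 8.75 times sampling noise (chi-square per degree of freedom), and no sample was counted as a repeat. The labels do not say whether samples are separate litters or batches, so P-values measure the spread between these samples.

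The members, classes and lists were chosen with earlier results of these data known. Described one by one were members past the adjusted threshold in any comparison and the 3 members of highest mean FPKM per class, and of the lists at most 5 genes with the smallest adjusted P-values over both housings. Other members are named where a count or a group without overlap called for it, after their values were seen. Positions are from GENCODE M21 (GRCm38) and sequences from RefSeq (GRCm38.p6), which held a window for 35 of 44 members. Figures were drawn with Python 3.11.15 and Matplotlib 3.10.9.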

Additional observations from a re-analysis of the deposited data

Results flagged for a closer look

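The effect of SNA on 2 members differed between housings at an unadjusted P-value below 0.05, by the interaction term of edgeR's quasi-likelihood test on all 12 samples. For Col25a1 the log2 fold change was −0.17 in SH and −0.64 in EE, a difference of −0.47 ± 0.20 (SE). For Col2a1 it was 1.38 in SH and −0.15 in EE, a difference of −1.53 ± 0.66. Both adjusted P-values were 0.9999, and 2.61% of all genes had an unadjusted P-value below 0.05. EE Sham, on which the values in EE rest, is described as an earlier data set, and data set and housing cannot be told apart. Col2a1 had 5 to 22 reads per sample and passed the filter on low counts through groups other than SH Sham.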

How the results depend on the processing

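With 3 samples per group, log2 differences of about 0.5 could be missed, and Col2a1, Col6a5, Col7a1 and Col13a1 rest on few reads. Scaling by library size moved no count of members by more than 1.5 times. In every comparison each alternative that kept all samples left the sign of the median log2 fold change of the members as it was. The median of all genes stayed within 0.02 of 0 in the comparisons of SNA with sham. DESeq2 gave no adjusted P-value for Col13a1 in EE + SNA against SH Sham and did not call Col25a1 in EE + SNA against EE Sham (0.0534).

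Counts of members are given as past the adjusted and past the unadjusted threshold of 0.05, with the reported count in brackets, and the cause of each difference was not tested. For SH SNA against SH Sham the adjusted count [0] was 1 by the likelihood ratio test and 4 with no filter on low counts, and the unadjusted count [7] was 4 by DESeq2, 12 with no filter, 1 by limma on log2(FPKM + 1) and 0 by limma on log2(FPKM + 0.1). For EE Sham against SH Sham the unadjusted count [3] was 8 with no filter and 1 with all 12 samples in one fit, as by either limma. For EE + SNA against SH Sham the adjusted count [4] was 2 in one fit, 0 by limma with + 1 and 1 with + 0.1, and the unadjusted count [10] was 6 by DESeq2 and either limma and 5 in one fit. For EE + SNA against SH SNA the unadjusted count [0] was 1 by the likelihood ratio test, by DESeq2, with at least 10 counts in every sample and in one fit, and 3 with no filter. For EE + SNA against EE Sham the adjusted count [3] was 12 with no filter and 0 by either limma, and the unadjusted count [17] was 11 by either limma. For the interaction the unadjusted count [2] was 1 by the likelihood ratio test, with at least 10 counts and by limma with + 1, 7 with no filter, and 0 by DESeq2 and by limma with + 0.1. Over both housings the adjusted count [9] was 19 with no filter (15.6% of all genes) and 4 by either limma (20.9% and 21%), and the unadjusted count [19] was 12 by either limma. With type IV alone as basement membrane collagens, their mean share of collagen FPKM was 20.4% in place of 25.8%.

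With the replicate number as a block, the unadjusted count was 8 for EE Sham against SH Sham and 3 for EE + SNA against SH SNA, and the adjusted count over both housings was 10. Of the single calls, the block ended those of Col12a1 (adjusted P = 0.0568) and Col25a1 (0.0648) in EE + SNA against EE Sham and that of Col6a5 over both housings (0.0588). In no comparison did the correlations settle whether samples of equal number are paired.

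Leaving out 1 sample at a time gave 0 to 3 adjusted and 2 to 16 unadjusted members for SH SNA against SH Sham (median log2 fold change 0.019 to 0.30), 0 and 0 to 8 for EE Sham against SH Sham (−0.20 to −0.019), 1 to 6 and 5 to 13 for EE + SNA against SH Sham (0.13 to 0.27) and 0 and 0 to 4 for EE + SNA against SH SNA (−0.076 to 0.12). It gave 0 to 8 and 8 to 19 for EE + SNA against EE Sham (0.18 to 0.36), 0 and 0 to 5 for the interaction (0.051 to 0.28) and 4 to 20 and 12 to 24 over both housings (0.18 to 0.28). The median for EE + SNA against SH SNA turned to −0.076 without replicate 2 of SH SNA and to −0.0022 without replicate 3 of EE + SNA, and Col28a1 over both housings, which ranged up to 0.057, to −0.021 without replicate 1 of SH SNA and to −0.0056 without replicate 2 of EE + SNA.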
